A study of Caenorhabditis elegans with 2 samples.

Results

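The core and linker histone genes of Caenorhabditis elegans were examined for peaks of SEA-1, a member of the T-box family of transcription factors that takes part in sex determination as one of the signals from the autosomes. The members were the protein-coding genes whose Ensembl symbol starts with his- or hil-, and they came to 80 of 19973 nuclear protein-coding genes. They comprised 71 core histone genes and 9 linker histone genes. In Ensembl 14 of the symbols are shared by 36 gene records, because identical copies carry 1 name, so each record was counted as a gene and named by its RefSeq symbol. The data came from 2 biological replicates of 1 group, whole early embryos (0 hour) obtained by egg bleaching from strain OP129. This strain carries the integrated transgene wgIs129, sea-1 fused to TY1, EGFP and 3xFLAG with unc-119(+) as a rescue marker, in an unc-119(ed3) background. The labels do not give the promoter that drives the fusion, and nothing in them tells its level from that of native SEA-1. The fusion was precipitated with an anti-GFP antibody from chromatin sonicated with a Bioruptor to a size range of 200-800, and the design holds no second condition.

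Histones package DNA into nucleosomes. Pairs of H2A, H2B, H3 and H4 form the octamer around which DNA is wrapped, and the linker histone H1 binds where DNA enters and leaves it. Replication-dependent core histone genes are used mainly in S phase, which makes up much of the cell cycle of early embryos, while variants such as H3.3 are made outside replication as well. In the worm most core genes stand head to head in pairs, H2A beside H2B or H3 beside H4, and many lie in near-identical copies.

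A peak was assigned to a gene when its summit lay within the promoter window, at most 1000 bp before or 200 bp after an annotated 5′ end. Conservative peaks are the 1249 peaks of the authors' conservative list, whose lowest score stands for an irreproducible discovery rate (IDR) of 0.01, written as 2 on the −log10 scale, and the ranked lists hold all candidate peaks. A peak's signal value is the authors' own. It ranks peaks within a list, and the scales of different lists, those of the replicates included, are not known to be comparable. Outside the conservative histone peaks, a replicate value is the highest in the same window and may come from another peak. The sequencing depth is unknown. Sequence repeats were measured as the share of 50-base words of a region that occur at more than 1 place in the WBcel235 genome on either strand. Neither the authors' read length nor their handling of reads that map to several places is stated in the sources used here. Where a region is repeated, a lack of binding and a lack of placeable reads cannot be told apart.

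Sequences are shown first for the regions between the 5′ ends of 3 H3/H4 pairs, all on chromosome V (build ce11). They hold the same T-box core, and the pairs differ in whether they carry a peak. Each starts and ends 30 bases from the nearer start codon. The capitals mark the T-box core GGTGTGA or its complement TCACACC. The region of his-6/his-5 (V:8535008-8535183, plus strand) and that of his-2/his-1 (V:16042314-16042489, plus strand) belong to pairs with a conservative peak. The summit of that peak lies between the 5′ ends at his-6/his-5, but in the coding exon of his-2 at his-2/his-1. The region of his-50/his-49 (V:8847735-8847912, minus strand) has no ranked peak in any list and its words are all repeated elsewhere.
his-6/his-5: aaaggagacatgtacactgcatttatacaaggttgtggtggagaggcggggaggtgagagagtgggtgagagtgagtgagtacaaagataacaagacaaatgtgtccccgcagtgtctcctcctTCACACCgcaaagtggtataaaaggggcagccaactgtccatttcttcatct
his-2/his-1: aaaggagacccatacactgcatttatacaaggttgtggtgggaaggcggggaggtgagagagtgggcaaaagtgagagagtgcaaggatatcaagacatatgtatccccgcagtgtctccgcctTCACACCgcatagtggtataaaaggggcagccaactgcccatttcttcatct
his-50/his-49: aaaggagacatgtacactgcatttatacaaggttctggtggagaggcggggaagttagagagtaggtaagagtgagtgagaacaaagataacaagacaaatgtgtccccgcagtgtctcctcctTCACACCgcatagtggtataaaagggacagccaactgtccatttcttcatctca

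The other comparison is of a pair of H2B/H2A regions, shown because their bases differ at 33 of 292 positions (88.7% identity) and only the first has a peak. They are his-4/his-3 (V:16040546-16040777, plus strand) and his-54/his-53 (V:8853408-8853639, plus strand), again with 30 bases taken off each end. The region of his-54/his-53 is 1 of 4 exact copies and all its words are repeated, while no word of the his-4/his-3 region is. The capitals mark the 32 bases of the printed stretch that differ between them. Whether those bases bear on the peak was not tested.
his-4/his-3: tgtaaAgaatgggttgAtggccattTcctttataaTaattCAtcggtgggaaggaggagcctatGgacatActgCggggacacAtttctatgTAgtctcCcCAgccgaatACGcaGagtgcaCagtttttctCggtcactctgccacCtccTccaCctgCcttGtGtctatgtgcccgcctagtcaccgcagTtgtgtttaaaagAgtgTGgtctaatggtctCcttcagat
his-54/his-53: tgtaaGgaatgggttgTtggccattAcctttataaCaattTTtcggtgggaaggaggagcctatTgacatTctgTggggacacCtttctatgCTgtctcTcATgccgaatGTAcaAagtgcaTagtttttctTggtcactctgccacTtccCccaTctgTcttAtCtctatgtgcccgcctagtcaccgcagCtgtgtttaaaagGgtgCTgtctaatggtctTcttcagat

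The first question was how many histone genes carry a peak. A conservative peak lay in the promoter window of 26 of 80 histone genes (32.5%), against 3.29% of all coding genes. The ranked list of the series gave a peak to 53 histone genes (66.25%), against 69.9% of all coding genes, which is no higher than the background. How the signal values compared depended on the width of the window. With genes that lack a ranked peak set lowest, the median of the highest signal value was 43.9 over the 80 histone genes and 25.6 over the other coding genes. The upper quartile was 92.6 for histone genes and 40.8 for other coding genes. In a window of 500 bp upstream to 100 bp downstream the order of the medians turned round, with 0 for histone genes, of which 45% then had a ranked peak, and 10.9 for other coding genes. The upper quartiles there were 68.9 for histone genes and 32.3 for other coding genes. No test of these differences was made, since the genes share upstream regions and were chosen with earlier results known.

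The replicates' own thresholded lists were shorter and gave fewer histone genes. That of replicate 1 held a peak for 19 histone genes, with 1.54% of all coding genes, and that of replicate 2 for 14, with 1.57%. Both own lists held a peak for 10 histone genes, against 1.01% of coding genes. The second thresholded list made from both replicates held one for 26, against 3.28%.

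Many of the members are copies of each other. All 16 H4 genes encode 1 protein of 103 residues, 15 of the 21 H3 genes share 1 protein, and 16 of the 17 H2A genes do so too. Of the 17 H2B genes 15 share their protein with another gene, in groups of at most 6. The coding sequences are less uniform, with 37 genes in 14 groups of identical coding sequence. Of these 37 genes, 11 had a ranked peak and 2 a conservative one. Of the 43 genes with a coding sequence of their own, 42 had a ranked peak and 24 a conservative one.

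Peaks were scarce where the whole promoter window was repeated. In 20 histone genes every word of the window occurs elsewhere, and none of them had a ranked peak. Of the 165 other coding genes with such a window 3.64% had one, and none had a conservative peak. Histone genes split evenly at a repeat share of 50%. Of the 40 below it 22 had a conservative peak (55%), against 3.31% of all 19474 coding genes with such windows. Of the 40 above it 4 had one, against 13 of all 499 coding genes with such windows. Where over 50% to 90% of words were repeated, 10 of 12 histone genes had a ranked peak (83.3%), against 55.8% of other coding genes. In the windows below 50%, the median of the highest ranked signal value was 77.8 for histone genes and 26.1 for other coding genes. In the narrower window of 500 bp upstream to 100 bp downstream it was 64.7 for these histone genes and 11.8 for the other coding genes.

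**Figure D1:**
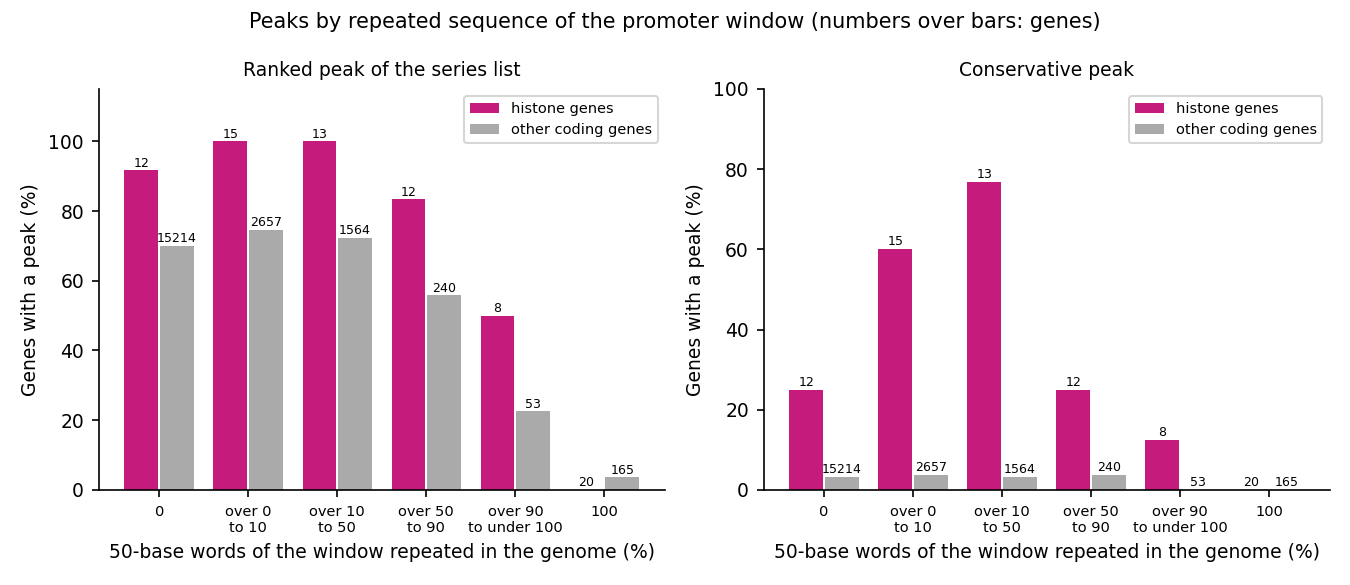
Share of genes with a ranked peak of the series list (left) and with a conservative peak (right) in percent, by the percent of 50-base words of the promoter window that are repeated in the genome, for histone genes and for other coding genes; numbers over the bars count genes. Between 10% and 50% of words repeated, 10 of 13 histone genes had a conservative peak, against 3.20% of other coding genes, and at 100% none of 20 had any ranked peak.

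Head-to-head pairs hold 62 of the members in 31 pairs, and 18 members are unpaired. The distance between the 5′ ends of a pair was 227 to 368 bp, and the GC content of that upstream region was 43.3% to 50%. A conservative summit lay in the promoter window of at least 1 gene in 12 of the 31 pairs, and within the locus itself in 11. There were 21 distinct upstream sequences among the 31 pairs, because 17 regions have exact copies of one another and make up 7 sequences.

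Of the 31 pairs, 11 have under 50% of the words in their upstream region repeated, and all 11 had a ranked peak in the locus, which runs from the far end of one gene to the far end of the other. The highest signal value per locus was 59.4 to 295 with a median of 113. A conservative peak lay in 9 of the 11. The pairs without one were his-35/his-41, at 59.4, and his-38/his-40, at 66.9. In the genes of these 11 pairs, 18 of 22 had a conservative peak in the promoter window, against 1 of the 9 unpaired core genes, his-42.

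Another 17 pairs have an upstream region in which every word is repeated, and 15 of them had no ranked peak in the locus in the series list. The exceptions were his-58/his-57, with 77.4, and his-47/his-48, with 43.9, and neither had a summit between the 5′ ends. The last 3 pairs lie between these classes. Among them his-17/his-18 had a peak of 127, while his-46/his-45 and his-55/his-56, whose regions differ from each other by 1 base, had none in the locus. The 17 fully repeated regions, and the 2 of them with a ranked peak, were as many with words of 36 and of 100 bases, lengths chosen after the data were seen.

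**Figure D2:**
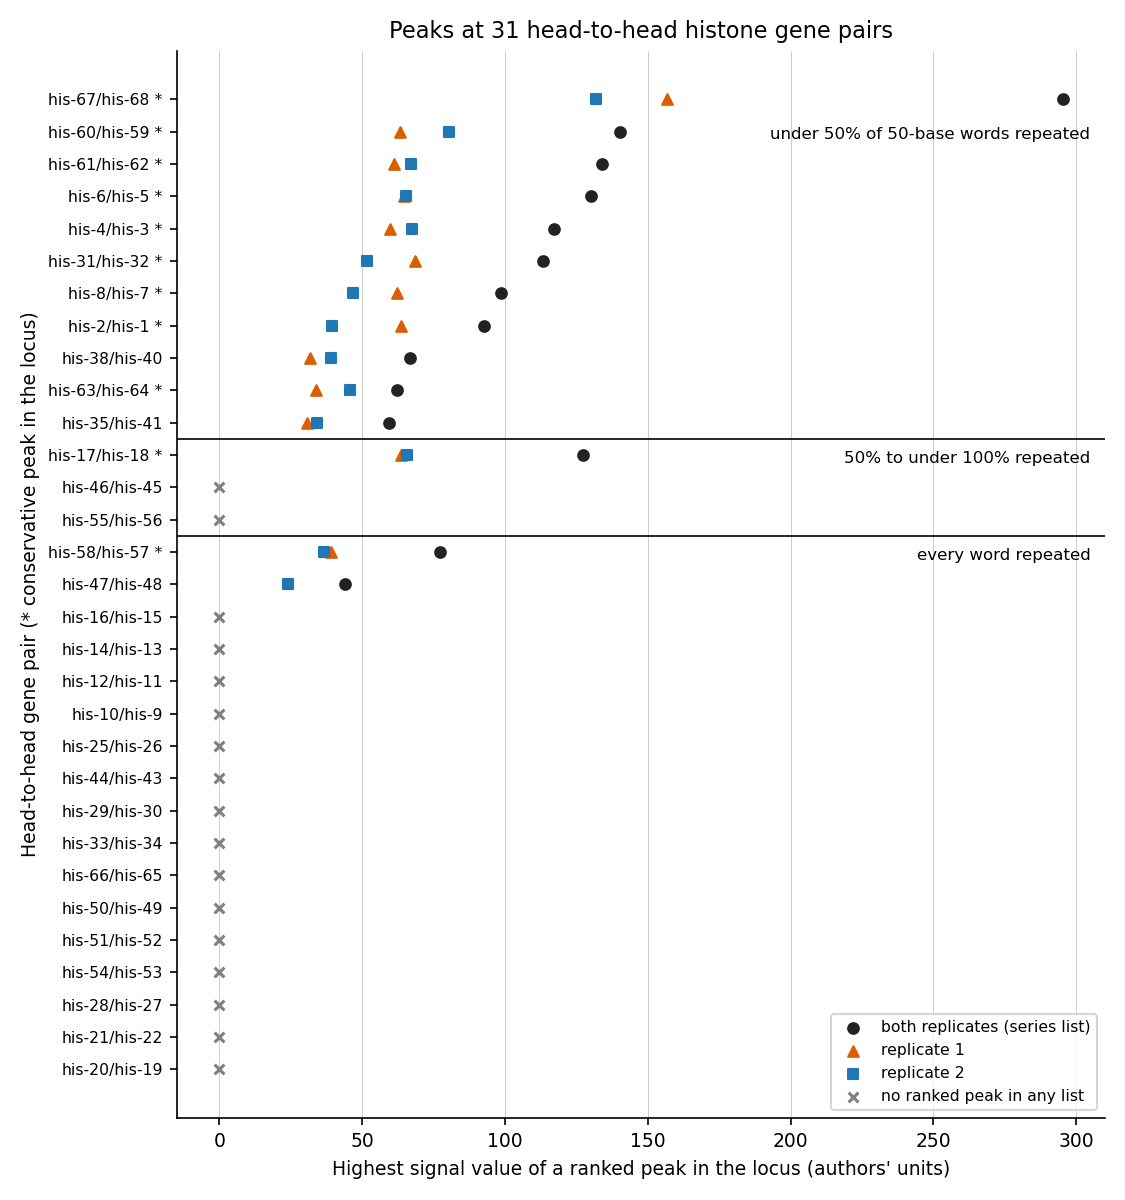
Highest signal value of a ranked peak (x axis, authors' units) in each of the 31 head-to-head pair loci, grouped by the repeat share of the upstream region, for the series list (circles), replicate 1 (triangles) and replicate 2 (squares); crosses mark loci with no ranked peak in any list and asterisks those with a conservative peak. All 11 pairs under 50% repeated carry peaks in both replicates, and 15 of 17 pairs in which every word is repeated carry none.

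Types of pair differed in how many copies they have. Of the 16 H2A/H2B pairs, 12 had every word of the upstream region repeated, and of the 14 H3/H4 pairs 5 did. Among the pairs under 50% repeated, 3 of 4 H2A/H2B pairs and 5 of 6 H3/H4 pairs had a conservative peak in the locus, and so did the single H4/H2A pair. Counted by genes, a conservative peak was found for 3 of 9 H1, 4 of 17 H2A, 5 of 17 H2B, 7 of 21 H3 and 7 of 16 H4 genes. The median of the highest ranked signal value was 40.9 for H1, 24.6 for H2A, 43.9 for H2B, 46.2 for H3 and 64.6 for H4. Limited to windows under 50% repeated, the counts were 3 of 9 for H1, 4 of 5 for H2A, 3 of 5 for H2B, 6 of 13 for H3 and 6 of 8 for H4. Genes of a pair share their peaks, so the types are not independent of each other.

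**Figure D3:**
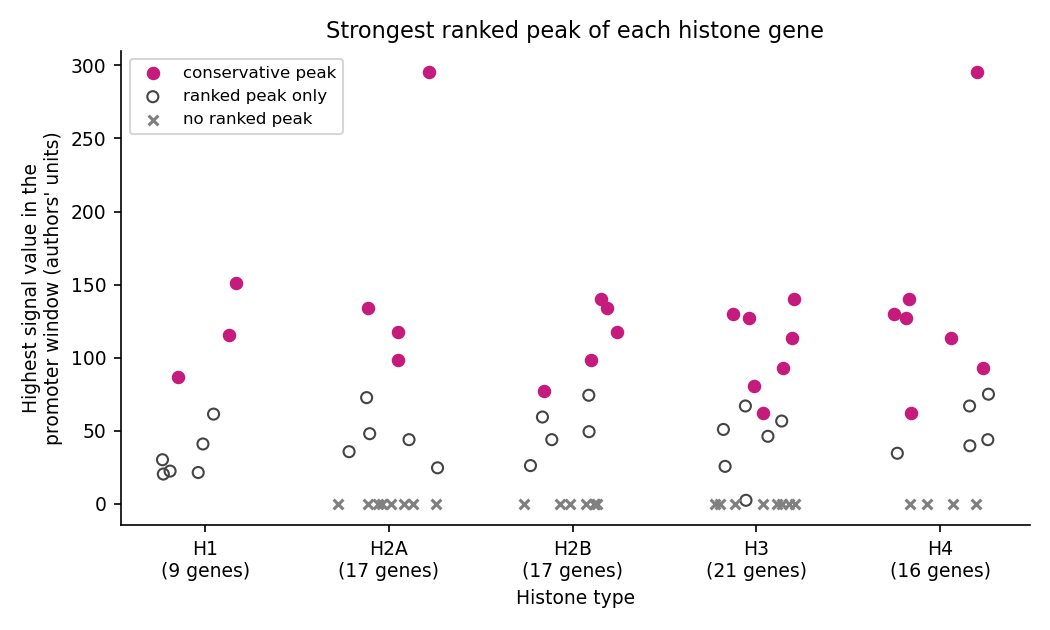
Highest signal value (y axis, authors' units) of a series-list ranked peak in the promoter window of each histone gene, by histone type; filled points have a conservative peak, open points a ranked peak only, and crosses at 0 no ranked peak. The H1 genes all carry a ranked peak, and the highest points, at 295, are his-68 among H2A and his-67 among H4, which share 1 peak.

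The 26 genes rested on 17 distinct conservative peaks, of which 10 lay in the windows of both genes of a pair and 7 in that of 1 gene. The median signal value of the 17 was 116, against 95.5 over all 1249 conservative peaks, and 11 of the 17 were above that value. Summits lay between the 5′ ends of a pair in 6 cases, in a coding exon in 6, in an intron in 1, in a UTR in 1 and in other intergenic sequence in 3. The matching shares over all conservative peaks are not given here. A ranked peak of both replicates overlapped 16 of them. The value in replicate 1 was higher in 9 of these and that in replicate 2 in 7, with ratios of replicate 1 over replicate 2 from 0.584 to 1.61. Both own lists held 6 of the 17 and neither own list held 4.

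The strongest histone peak lay between his-67, an H4 gene, and his-68, an H2A gene (I:9988847-9989043), the 1 pair of mixed type. Its signal value was 295, with 157 in replicate 1 and 132 in replicate 2, and it stood at rank 47 of the conservative list. No word of that peak is repeated, and it was in both own lists. The next histone peaks were those of hil-3 at 151.1, his-60/his-59 at 140.4 and his-15 at 140.3, described with their types.

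The H2A/H2B pairs with an upstream region under 50% repeated and a conservative peak were 3. The peak of his-61/his-62 (IV:7485925-7486244) had 134 in the series list, 61.2 in replicate 1 and 67.2 in replicate 2, with its summit in the coding exon of his-61. The peak of his-4/his-3 (V:16040407-16040726) had 117, with 59.8 in replicate 1 and 67.4 in replicate 2. Both were in both own lists. The peak of his-8/his-7 (V:8533097-8533416) had 98.6, with 62.3 in replicate 1 and 46.7 in replicate 2, and was in the own list of replicate 1 alone. The summits of his-4/his-3 and his-8/his-7 lay between the 5′ ends.

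Of the H3/H4 pairs the highest was his-60/his-59 (IV:7487697-7488016), at 140, with 63.3 in replicate 1 and 80.5 in replicate 2 and the summit in the coding exon of his-60. The peak of his-6/his-5 (V:8534982-8535301) had 130, with 64.8 in replicate 1 and 65.3 in replicate 2, and that of his-31/his-32 (IV:8333960-8334279) had 113, with 68.5 and 51.8 in the same order. Both have their summit between the 5′ ends and both were in the own list of replicate 1 alone. A second, weaker peak in the window of his-31 (IV:8334381-8334700, 82.6) had 42.0 and 41.6, with its summit in the coding exon of his-32, and was in neither own list.

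The remaining H3/H4 peaks varied in their replicate values. The peak of his-2/his-1 (V:16042088-16042407) had 92.6, with 63.8 in replicate 1 and 39.6 in replicate 2, the highest ratio among the 16. Its summit lay in the coding exon of his-2. The peak of his-17/his-18 (V:8898073-8898392) had 127, with 63.6 in replicate 1 and 65.7 in replicate 2, and its summit in the coding exon of his-18. Of its words 83.03% are repeated, and what part the copies have in its value was not tested. The peak of his-63/his-64 (IV:11406715-11407034) had 62.3, the lowest of the 17, with 33.7 in replicate 1 and 45.6 in replicate 2. Its summit lies between the 5′ ends, but neither replicate had a ranked summit there. The summits of the overlapping replicate peaks lay 169 bp away in replicate 1 and 119 bp away in replicate 2.

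Peaks in the window of a single core gene lay further from its 5′ end. The peak in the window of his-15 (II:13817557-13817876, 140) had 49.9 in replicate 1 and 85.4 in replicate 2, the lowest ratio among the 16, and its summit lay 654 bp upstream of the 5′ end of his-15, beyond the 3′ end of his-16. The peak for his-42 (II:13829225-13829544, 80.7) lay 688 bp upstream, within 100 bp of the snRNA gene C47F8.9 and the noncoding RNA gene R05D7.8, and 71.96% of its words are repeated. It had 46.7 in replicate 1, no overlapping ranked peak in replicate 2, and no place in the second list. The peak for his-58 (IV:11340689-11341008, 77.4) lay 743 bp upstream, in an intron of his-57, and had 38.9 in replicate 1 and 36.7 in replicate 2. In all 5 of the 17 peaks lay within 100 bp of a noncoding gene, and whether those genes take part in the signal was not tested. The matching share over all conservative peaks is not given here, so this count cannot be called high or low.

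**Figure D4:**
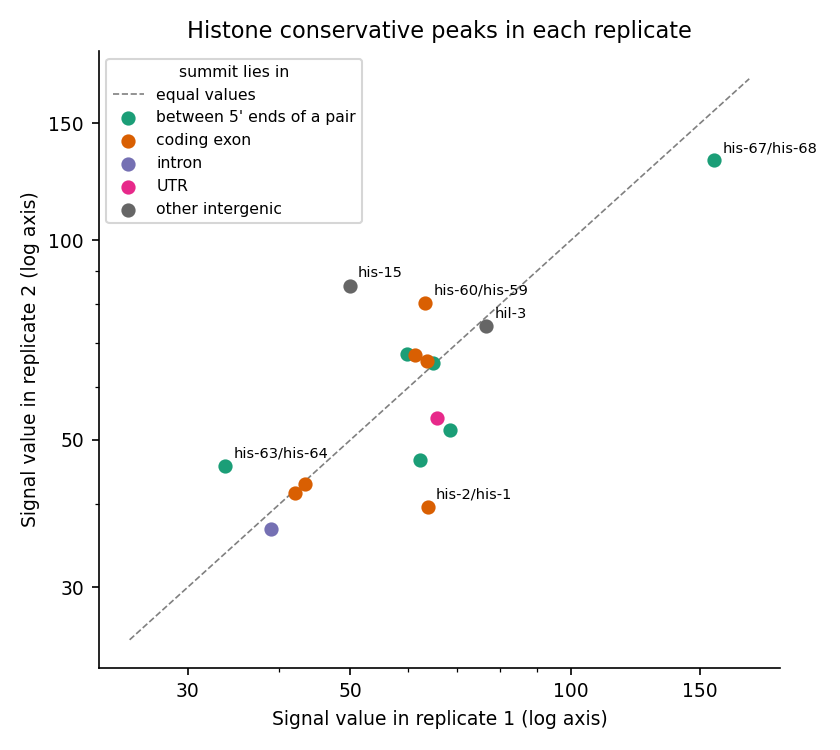
Signal value in replicate 1 (x, log axis) against replicate 2 (y, log axis) of the 16 histone conservative peaks that a ranked peak overlaps in each replicate, coloured by where the summit lies; the dashed line marks equal values. Peak his-67/his-68 stands alone at the upper right, and his-15 and his-2/his-1 lie farthest from the line.

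The linker histone genes lie singly and have no identical copies, and none of their windows passed 5% of repeated words. All 9 had a ranked peak, as did 69.9% of all coding genes. A conservative peak was found at hil-3 (X:8159006-8159325), at 151 with 76.7 in replicate 1 and 74.1 in replicate 2, 3 bp from the 5′ end and in both own lists. The peak of his-24 (X:14489943-14490262) had 116, with 65.6 in replicate 1 and 53.9 in replicate 2, and lay 9 bp from the 5′ end in the UTR, beside the noncoding RNA gene M163.19. The peak of hil-2 (IV:6294156-6294475) had 87.0, with 43.4 in replicate 1 and 42.9 in replicate 2, and lay 76 bp past the outermost 5′ end in a coding exon.

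The other linker genes were weaker in the series list. hil-4 stood at 61.4 (31.1 in replicate 1, 22.9 in replicate 2) and hil-7 at 40.9 (26.2 in replicate 2, no ranked peak in replicate 1). hil-1 stood at 30.1, hil-8 at 22.4, hil-6 at 21.4 and hil-5 at 20.3, and none of these 4 had a ranked peak in both replicates. Of the 6 linker genes without a conservative peak, hil-4, hil-7 and hil-1 were above the median of all coding genes, 25.6, and the other 3 below it.

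H3 variants outside the large clusters carried no conservative peak. Those known to make H3.3 or an H3.3-like protein had at most moderate values in the series list. his-72, an H3.3 gene, had 50.9 with 30.2 in replicate 1 and 26.2 in replicate 2, and his-70 had 46.2 with 20.1 and 24.8 in the same order. his-71, another H3.3 gene, had 25.6 with 14.9 in replicate 1 and none in replicate 2. his-69 had 2.37, with 17.4 in replicate 2 alone, and his-74 had no ranked peak in the promoter window in any of the 3 lists. The short gene his-73, assigned to H3 by identity, had 56.6, with its summit 963 bp upstream. The H2A variant his-35 had 72.6, with its summit 997 bp upstream. Of the 7 core genes with an annotated 5′ UTR none had a conservative peak, and his-72 had one in the second list.

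The members just outside the conservative list overlap in signal value with those just inside. his-37 stood at 74.98 with a scaled IDR score of 818, his-66 at 74.3 with 649 and his-38/his-40 at 66.9 with 726. Inside the list, whose lowest score is 830, his-63/his-64 stood at 62.3 with a score of 850. The order by score, a measure of how alike the replicates rank a peak, thus differed from the order by signal value.

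The other core genes with a ranked peak only were in the paired clusters or beside them. Of the 27 members with a ranked but no conservative peak 6 are linker genes and 21 core genes. In the unrepeated cluster of his-35, his-41 and his-37, the H4 gene his-37 had 43.9 in replicate 1. Its summit in the series list lay 90 bp upstream. In replicate 2 the highest peak in its window, at 34.1, is another one. That peak is also the highest of his-35 and has its summit in the his-35/his-41 locus. The H2B gene his-41 had 59.4 in the series list with 30.6 in replicate 1 and 23.5 in replicate 2. The pair his-38/his-40 on chromosome X had 31.6 in replicate 1 and 39.2 in replicate 2. Both replicates thus ranked a peak in the promoter window of each of these genes, though at his-37 the replicate 2 peak lies elsewhere in the window.

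Members with mostly repeated windows are given next. The H2B gene his-66 had 74.3 in the series list, with 33.0 in replicate 1 and 32.0 in replicate 2, and its summit lay 827 bp upstream. his-65 had 47.96, his-26 had 43.8, his-46 had 39.7, his-12 had 35.6, his-56 had 34.6, his-34 had 26.1 and his-57 had 24.6 in the series list, and his-47 and his-48 share the peak of 43.9. All of these windows have over 50% of their words repeated. Apart from the peak of his-47 and his-48, the summits at these genes lay 669 to 988 bp upstream. The short gene his-39, assigned to H2B by identity and with 11.1% of its window repeated, had 49.3. Of the 27 members with no ranked peak in the series list, 20 have a fully repeated window and 7 do not. The 7 are his-10, his-29, his-30, his-33, his-45, his-55 and his-74, of which his-10 had a ranked peak of 35.6 and his-30 one of 8.41 in replicate 2.

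Clusters were compared by their repeat share. Genes within 20 kb of each other form 13 clusters with 67 genes. In the cluster at V:8847393-8854053 all words are repeated, and its 6 genes had no ranked summit in the series list. In that at V:8889488-8898539, 98.4% repeated, 2 of 8 genes, his-17 and his-18, had a ranked peak in the promoter window. The cluster of 13 genes at II:13817760-13828697 was 92.4% repeated and held no conservative summit within its span, since the peaks of his-15 and his-42 lie just outside it. All 4 genes had a conservative peak in each of the clusters at IV:7485834-7488659 (6.91% repeated) and V:16040144-16042831 (20.4%), and 4 of 5 genes did at V:8532715-8536716 (30.4%). On chromosome IV, 2 of 6 genes had one at IV:8331044-8336340 (47.3% repeated), 1 of 8 at IV:11324056-11341703 (32.7%) and 2 of 4 at IV:11400415-11407427 (25.2%). The cluster with the lowest repeat share, at V:9544659-9547607 (his-35, his-41 and his-37, 0.0345% repeated), had a conservative peak at none of its 3 genes, and neither did the clusters of his-69 and his-70 (0.643%) and of his-38 and his-40 (16.7%) at their 2 genes each. The pair his-67/his-68 (5.22%) had one at both genes. Below 50% the count of genes with a conservative peak thus did not follow the repeat share.

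Upstream regions of pairs with a peak often resemble those of pairs without. The region of his-17/his-18 differs from that of his-50/his-49 by 3 bases (98.7% identity), that of his-8/his-7 from his-54/his-53 by 13 (95.5%) and that of his-6/his-5 from his-50/his-49 by 13 (94.5%). In each case the first pair had a peak and the second, whose words are all repeated, had none. In the H2B/H2A regions printed above, his-4/his-3 had 117 in the series list and his-54/his-53, again with all words repeated, no ranked peak.

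Motifs were searched on both strands in the 250 bp upstream of every coding gene. The TATA sequence TATAAA was present at 51 of 80 histone genes (63.75%) and at 35.2% of all coding genes. The T-box core GGTGTGA was present at 12 histone genes (15%), against 1.97% of all coding genes. It fell in 6 of the 31 upstream regions, all of H3/H4 pairs, with 5 distinct sequences among them. Of these 6 pairs, his-6/his-5, his-2/his-1 and his-17/his-18 had a conservative peak in the locus, and his-50/his-49, his-28/his-27 and his-38/his-40 had none. At his-50/his-49 and his-28/his-27 every word of the region is repeated. Among pairs under 50% repeated, 2 of the 3 with the core had a conservative peak, against 5 of all 6 H3/H4 pairs of that class. The distance from the core to the strongest ranked summit was 7 bp at his-6/his-5, 83 bp at his-17/his-18, 135 bp at his-38/his-40 and 193 bp at his-2/his-1. At his-2/his-1 the core (V:16042438-16042444) lies outside the conservative peak. Thus 3 of the 6 H3/H4 pairs with a conservative peak in the locus hold the core. The other H3/H4 pairs with one, his-60/his-59, his-31/his-32 and his-63/his-64, had no match to these letters in the upstream region. Neither the upstream region of his-67/his-68, where the strongest histone peak lies, nor those of the H2A/H2B pairs had a match. Sequence beyond these regions, such as that under the summits of his-61/his-62, his-15 and his-58, was not part of this search. The B box of tRNA genes had no match at any histone gene, against 0.150% of coding genes. The string GGGGACAC was picked after the sequences were seen and is visible above both in the his-4/his-3 region and in that of his-54/his-53, which has no peak. It was present at 44 histone genes (55%) and 0.471% of all coding genes. It lies in 21 of the 31 upstream regions, of 12 distinct sequences. Of these 21 pairs 7 had a conservative peak in the locus, against 11 of all 31 pairs. Copies share ancestry, so these counts do not add up to independent sites.

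Other genes that handle histones were compared as a list of 19. They are variants under other names, the stem-loop factors of histone mRNA, and chaperones. Conservative peaks were found at 4 of the 19, against 3.29% of all coding genes. A ranked peak was found at 17, against 69.9% of all coding genes. unc-85, a homologue of the H3/H4 chaperone ASF1, had 111 in the series list, with 69.9 in replicate 1 and 31.4 in replicate 2. lin-53, a homologue of the histone-binding protein RbAp48, had 104 with 44.2 in replicate 1 and 61.9 in replicate 2. htz-1, which encodes H2A.Z, had 78.6 with 47.3 and 34.5 in the same order, and chaf-2, a subunit of the CAF-1 chaperone, had 78.1 with 52.3 and 35.3. htz-1 and chaf-2 were not in the second list. Neither rba-1 nor spt-16 had a ranked peak in the series list, though spt-16 had 42.1 in replicate 1. The median over the 19 genes was 33.1, against 43.9 over the histone genes and 25.6 over all coding genes.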

How the data were processed

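Peaks of 2 biological replicates were deposited by the authors as narrowPeak lists, on build ce11 per the labels, and the series lists derive from both replicates. The thresholded lists used another input of unstated role. Aligner, peak caller, versions, read length and depth: not given in the sources used here. Values of signal, score (scaled IDR) and −log10 q-value are as the authors deposited them; the −log10 q-values entered no comparison. Possible controls are named in the labels; their values were not used here.

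Summits were assigned to promoter windows on Ensembl release 115 (WBcel235), and names came from RefSeq by locus tag. The 9 linker genes were typed by symbol, and the core genes by RefSeq product or by protein identity (2 genes). Sequences are those of the RefSeq genome. Of the ranked series lists, that of the rule holds 996 of the 1249 conservative peaks past their threshold, and the other holds all 1249; the medians are the same. Window assignment and word counts were tested on simulated data. All members are accounted for. Named with values were members with a conservative peak, the strongest of each type, members just outside the list, linker genes, variants, and supply genes with a conservative peak; supply genes with no ranked peak were named after their values were seen. Members and lists were chosen with earlier results of these data known. No test was made: there is 1 group of 2 replicates, and the genes share peaks. Python 3.11.15, pandas 2.3.3 and edlib were used. Alternatives changed the list, replicate, window, overlap and word length.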

Additional observations from a re-analysis of the deposited data

How the results depend on the processing

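No paired analysis was possible because the design has 1 group. With the second list, the gene body window or either overlap rule in place of the summit, counts of genes and of distinct peaks stayed within 1.5 times those given. With conservative peaks at or above their median signal, distinct peaks numbered 11 and H3 genes 4; with a window of 500 bp upstream to 100 bp downstream, H2B genes numbered 3. The replicates' own lists, with one replicate left out at a time, gave 14 to 19 genes against 26, 9 to 11 distinct peaks against 17, and 7 to 9 pairs with a summit in a promoter window against 12. By type they gave 1 to 2 H1, 2 to 4 H2A, 3 H2B, 3 to 5 H3 and 4 to 6 H4 genes. Medians of the highest ranked signal value moved with the window: the 500 to 100 bp window gave 0 for all members (10.9 for other coding genes), for H2A and for H2B, 29.9 for H3 and 31.1 for H4, since fewer than 50% of some sets then had a ranked summit. Any overlap gave 48.6 for all members, 35.6 for H2A and 50.9 for H3. Ranked lists of a single replicate, on scales of their own, gave 23.4 to 24.7 for all members, 12.4 to 22.9 for H1, 0 to 8.41 for H2A, 23.5 to 24.5 for H2B, 20.1 to 23.8 for H3 and 35.4 to 37.4 for H4. The cause of these moves was not tested. Word lengths of 36 and 100 bases, added after the data were seen, left 17 fully repeated upstream regions, 2 of them with a ranked peak in the locus. Depth is unknown, so no limit of detection can be given.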
